A study of Mus musculus with 2 samples.

Results

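Pericytes of the adult mouse striatum were selected from 2 single-cell RNA libraries by the genes that mark them. A barcode was taken as a pericyte when it had at least 300 detected genes, at least 1 unique molecular identifier (UMI, a counted RNA molecule) for 3 or more of the 7 genes *Kcnj8*, *Abcc9*, *Higd1b*, *Vtn*, *Rgs5*, *Ndufa4l2* and *Atp13a5*, and no more than 2 UMIs in all for the contractile genes *Acta2*, *Tagln* and *Myh11*. This gave 439 pericytes among 12262 barcodes with at least 300 detected genes, of 12415 barcodes in all. Replicate 1 held 240 pericytes, or 3.48% of its 6898 barcodes (exact binomial 95% interval 3.06 to 3.94), and replicate 2 held 199, or 3.71% of 5364 (3.22 to 4.25). The mean share was 3.59% ± 0.163 (SD, n = 2), and intervals here cover counting error only. Without the barcodes that also met the rule of another cell class, described below, the mean share was 2.05%.

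The libraries were replicates of 1 untreated condition, made with 10x Genomics 3′ chemistry from striatum of mice aged 8 to 10 weeks in a study of astrocyte diversity. No allele was introduced and no animal was treated. The study's methods add the transcription inhibitor actinomycin D to the recovery and digestion solutions of all samples. The tissue was cut into slices, digested with pronase, filtered and cleared of myelin, and the labels call the cells glia enriched, so that a share of barcodes is not a share of the tissue. The labels name the strain in one field as C57/Bl6J and in the protocol as C57BL/6NTac, and do not say how many mice went into a library. The age is that of the labels, while the series text gives a narrower range and the methods of the study give a younger one, for male mice. Replicate 1 held 44597660 UMIs in 6978 barcodes, with a median of 3852 per barcode, and replicate 2 held 37982720 UMIs in 5437 barcodes, with a median of 5375.

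Pericytes are the mural cells of capillaries. They sit within the basement membrane that they share with the endothelium and are maintained through platelet-derived growth factor signalling from endothelial cells to the receptor encoded by *Pdgfrb*. Brain pericytes are known for their part in the blood–brain barrier, for the control of capillary tone, and for an ATP-sensitive potassium channel that links the energy state of the cell to its membrane potential. Smooth muscle cells are the mural cells of arterioles and carry the full contractile machinery that most capillary pericytes lack.

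The channel is built from a pore-forming subunit encoded by *Kcnj8* and a regulatory subunit, a sulphonylurea receptor, encoded by *Abcc9*. Both are selection genes, so their levels are a description. The 2 genes are neighbours on the minus strand of mouse chromosome 6 in the GENCODE annotation of GRCm38, with *Kcnj8* (ENSMUSG00000030247) at chr6:142564837-142571614, *Abcc9* (ENSMUSG00000030249) at chr6:142587862-142702315 and 16247 bases between them. Stretches of their promoters, running from 250 to 51 bases before the RefSeq start and read 5′ to 3′ on the gene's strand, are shown because they encode both subunits of this channel. The promoter of *Myl9* (ENSMUSG00000067818), the regulatory light chain of smooth muscle myosin, is shown beside them because *Myl9* was detected in most pericytes, at a level between those of endothelial-like and smooth muscle-like cells. The windows lie at chr6:142571665-142571864 on the minus strand for *Kcnj8*, chr6:142702325-142702524 on the minus strand for *Abcc9* and chr2:156775214-156775413 on the plus strand for *Myl9* in GRCm38.p6. Capitals mark the letters GGGCGG on either strand and, in *Myl9*, the CArG box.
Kcnj8: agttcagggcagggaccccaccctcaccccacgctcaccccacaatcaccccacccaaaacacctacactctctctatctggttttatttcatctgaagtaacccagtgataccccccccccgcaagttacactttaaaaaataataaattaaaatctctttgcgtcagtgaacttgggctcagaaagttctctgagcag
Abcc9: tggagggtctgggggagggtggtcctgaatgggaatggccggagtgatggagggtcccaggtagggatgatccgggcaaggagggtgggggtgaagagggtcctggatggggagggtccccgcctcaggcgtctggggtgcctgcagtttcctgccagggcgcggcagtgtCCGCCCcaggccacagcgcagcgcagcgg
Myl9: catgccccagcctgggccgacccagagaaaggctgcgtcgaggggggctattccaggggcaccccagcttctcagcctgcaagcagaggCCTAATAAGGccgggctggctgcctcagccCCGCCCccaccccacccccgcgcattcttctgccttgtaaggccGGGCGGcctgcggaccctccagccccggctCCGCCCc
The CArG box, the element that serum response factor binds, was searched by its name on both strands of the 250 bases before the start, together with TATAAA and GGGCGG. *Myl9* held the CArG box, while *Kcnj8* held none of these letters and *Abcc9* held GGGCGG alone. Among the 5 selection genes with a promoter in the RefSeq table, 0 held the CArG box, 1 (*Vtn*) held TATAAA and 1 (*Abcc9*) held GGGCGG. Over all 27025 genes in that table, 1.62% held the CArG box, 14.3% TATAAA and 35.4% GGGCGG. A match is a run of letters in this window and not a measured binding site.

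*Kcnj8* was at 623 CPM (UMIs of the gene for every 1000000 UMIs summed across the class in a library) in pericytes of replicate 1 and 663 CPM in replicate 2, against 5.55 and 12.7 CPM in smooth muscle-like cells and 4.34 and 0.491 CPM in endothelial-like cells. *Abcc9* was at 450.1 and 465 CPM in pericytes, 1.85 and 5.44 CPM in smooth muscle-like cells and 3.16 and 1.47 CPM in endothelial-like cells. Pericytes of both libraries lay far above both other classes for both subunits. Both subunits were detected in 130 of 240 pericytes in replicate 1 and 108 of 199 in replicate 2, *Kcnj8* alone in 26 and 24, *Abcc9* alone in 42 and 38, and neither in 42 and 29. Both are among the 7 genes of which the rule asks for 3, so the rule shapes these counts. A *Kcnj8* UMI was present in 65.0% and 66.3% of pericytes, and in 44.7% and 47.1% after each cell was thinned to 1000 UMIs. In microglia-like cells, which should lack the gene, the shares were 0.831% and 0.287%, at median depths of 6973 and 5525 UMIs against 3889.5 and 4047 UMIs for pericytes. The paralogues that form the channel of pancreatic beta cells were almost without counts, with 1 UMI of *Kcnj11* and 0 of *Abcc8* over all pericytes.

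The other selection genes divided into those that smooth muscle-like cells also carried and those that they did not. *Atp13a5*, a P-type ATPase on chromosome 16 (chr16:29231851-29378732), was at 560.1 and 748 CPM in pericytes and at 5.55 and 32.6 CPM in smooth muscle-like cells. *Vtn*, which encodes the matrix and plasma protein vitronectin (chr11:78499091-78502324), was at 10314 and 11123 CPM in pericytes, against 435 and 584 CPM in smooth muscle-like cells and 74.2 and 19.2 CPM in endothelial-like cells. *Rgs5*, a regulator of G protein signalling (chr1:169655501-169695813), was at 2859 and 3749.6 CPM in all pericytes, 5336 and 5674 CPM in the pericytes described below that met no other class's rule, and 2519 and 2607 CPM in smooth muscle-like cells. An *Rgs5* UMI was present, after thinning, in 80% and 87.2% of all pericytes and 55.9% and 49.2% of smooth muscle-like cells. *Higd1b* was at 859.9 and 893 CPM in pericytes and 409 and 466 CPM in smooth muscle-like cells, and *Ndufa4l2*, a mitochondrial protein, was at 767 and 791 CPM and at 407 and 412 CPM. Barcodes that also met another class's rule, described below, gave 1167135 of the 1564074 UMIs of pericytes in replicate 1 and 994783 of 1285752 in replicate 2. In the pericytes that met no other rule, the 7 genes summed to 41830 and 45881 CPM, against 16433 and 18433 CPM in all pericytes, with *Kcnj8* at 1617 and 1663 CPM, *Abcc9* at 1126 and 1072 CPM, *Atp13a5* at 1456 and 2131 CPM and *Vtn* at 28198 and 31247 CPM. *Higd1b* was there at 2124 and 2038 CPM and *Ndufa4l2* at 1973 and 2055 CPM. Of the contractile genes that the rule kept low, *Acta2* was at 17.3 and 8.56 CPM in pericytes against 23116 and 19348 CPM in smooth muscle-like cells.

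**Figure D1:**
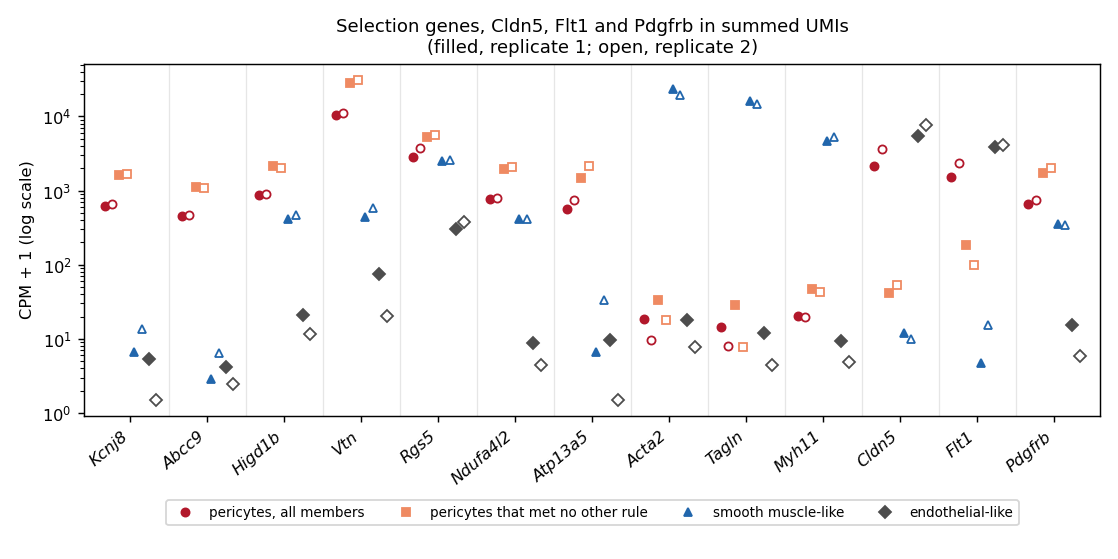
Level of the 7 selection genes, the 3 contractile genes kept low, 2 endothelial genes and *Pdgfrb* in CPM on a log axis (1 CPM added) in each class, with a filled point for replicate 1 and an open point for replicate 2. *Kcnj8*, *Abcc9* and *Atp13a5* were low outside pericytes, *Rgs5* was high in smooth muscle-like cells too, and *Cldn5* and *Flt1* were high in all pericytes and low in those that met no other class's rule.

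Pericytes varied in how many of the selection genes they showed. All 7 were detected in 94 pericytes of replicate 1 and 84 of replicate 2, and exactly 3, the minimum, in 43 and 31. Those with exactly 3 had a summed level of the 7 genes of 2732 and 4104 CPM and *Pdgfrb* at 200.2 and 224 CPM. Their 7 endothelial marker genes, named below, summed to 5165 and 14123 CPM, more than the selection genes, and 14 of the 43 and 17 of the 31 met the endothelial rule. The 148 and 81 barcodes just outside, with 2 of the 7 genes, had a summed level of 676 and 1595 CPM and *Pdgfrb* at 37.8 and 73.8 CPM. Those with all 7 reached 26233 and 24647 CPM, with *Pdgfrb* at 906 and 944 CPM and the endothelial genes at 5102 and 7884 CPM. At the other limit, 181 and 161 pericytes had no UMI of the 3 contractile genes, 40 and 32 had 1, and 19 and 6 had 2, with a summed contractile level of 254 and 175 CPM in this last group. Only 8 and 3 barcodes lay just outside with 3 contractile UMIs, at 382 and 567 CPM, and 52 and 49 had 4 or more, at 27820 and 22256 CPM.

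Many pericytes carried the marker genes of a second cell class. Another class's rule was met by 99 pericytes of replicate 1 (41.3%, exact binomial 95% interval 35.0 to 47.8) and 89 of replicate 2 (44.7%, 37.7 to 51.9). The endothelial rule, at least 4 of the 7 genes *Cldn5*, *Flt1*, *Pecam1*, *Cdh5*, *Slco1a4*, *Ptprb* and *Adgrl4*, was met by 64 (26.7%) and 81 (40.7%). The oligodendrocyte rule was met by 31 and 6, the astrocyte rule by 20 and 7, the neuronal rule by 14 and 3, the microglial rule by 13 and 7, and the oligodendrocyte precursor rule by 11 and 2. Of these 7 genes, 0 were detected in 103 and 85 pericytes, 1 in 53 and 25, 2 in 17 and 8, 3 in 3 and 0, 4 in 4 and 1, 5 in 3 and 3, 6 in 9 and 14, and all 7 in 48 and 63. In both libraries the numbers 0, 1 and 7 were the most frequent. Pericytes that met the endothelial rule had a median of 10781.5 and 9199 UMIs. The 251 pericytes that met no other rule, 141 and 110, had a median of 2334 and 2234.5 UMIs, with none above 7232 and 6971 UMIs. The doublet caller Scrublet marked 5 and 12 pericytes among 95 (1.38%) and 150 (2.80%) barcodes in all. Whether these barcodes held a pericyte attached to another cell, captured RNA of a second cell, or cells with both sets of genes was not tested. Of the 9 barcode sequences that the libraries shared, 0 belonged to pericytes.

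**Figure D2:**
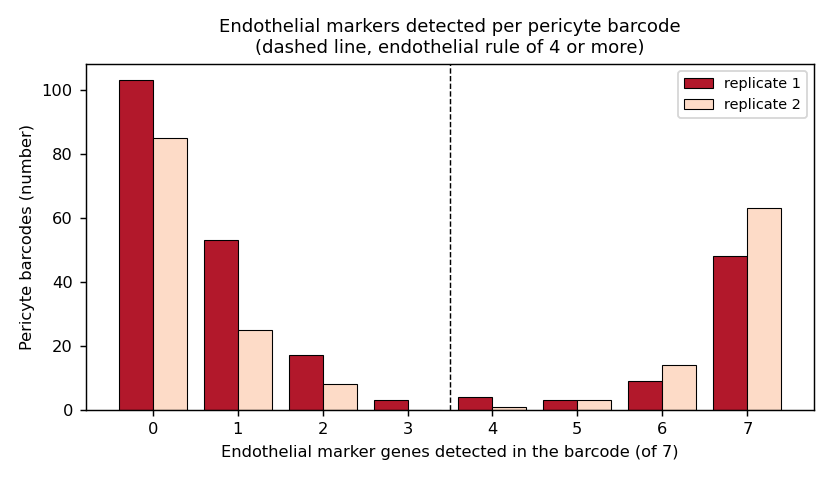
Number of pericytes (vertical axis) with 0 to 7 of the 7 endothelial marker genes detected (horizontal axis) in each replicate, with a dashed line at the rule of at least 4. In both replicates 0, 1 and 7 endothelial genes were the most frequent numbers, and 3 to 5 were rare.

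The smooth muscle-like and endothelial-like classes leave out barcodes that met another rule. The counts over most lists are therefore given for all pericytes and for the 251 that met no other rule, here called single-rule pericytes. Not every gene that leads a list is named, and some are given for all pericytes alone. Values given without a set are for all pericytes. The low endothelial level of the single-rule pericytes is a result of that choice. The classes compared were 61 and 60 smooth muscle-like cells, with UMIs of all 3 contractile genes, and 618 and 519 endothelial-like cells, with median depths of 9006 and 9047 UMIs and of 2948 and 3225 UMIs. Their median mitochondrial shares of UMIs were 6.84% and 11.4%, and 4.64% and 4.75%, against 5.18% and 5.56% in all pericytes. The part of this difference in the results was not tested. UMIs were summed per library and class and fitted across all genes by edgeR's quasi-likelihood test, blocked on the library, with Benjamini-Hochberg adjustment. The genes in the rules of the 2 classes compared were left out. Marker genes of the other classes stayed in, although their rules decided which barcodes were left out, so differences in them describe the selection in part. A log2 fold change is positive where pericytes were higher, and a call is an adjusted p under 0.05. The ± is an approximate standard error, the size of the fold change divided by the square root of the test's F statistic. Both comparisons use the same pericyte sums. The p-values rest on how the classes varied between the 2 libraries once the library block was taken out. That spread was estimated over all 8 classes, not the 2 compared alone, and may be technical.

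The genes by which mural cells are usually known, other than those of the rule, were carried by pericytes in both libraries. *Pdgfrb*, the receptor for platelet-derived growth factor B, was at 657 and 753 CPM in all pericytes, 1703 and 2028 CPM in single-rule pericytes, 355 and 346 CPM in smooth muscle-like cells and 14.6 and 4.91 CPM in endothelial-like cells. The groups did not overlap. Against smooth muscle-like cells the log2 fold change was 0.71 ± 0.21 (edgeR adjusted p = 0.023) for all pericytes and 2.09 ± 0.21 (2.0e-06) for single-rule pericytes, and against endothelial-like cells it was 5.84 ± 0.28 (1.0e-08) and 7.21 ± 0.28 (1.3e-11). A *Pdgfrb* UMI was present in 86.5% and 91.8% of single-rule pericytes and in 90.2% and 85.0% of smooth muscle-like cells. After thinning to 1000 UMIs these shares were 82.4% and 79.5% against 32.2% and 30.5%, with 0.831% and 0.669% of microglia-like cells before thinning.

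Of the 20 mural identity genes, 13 were higher and 4 lower in all pericytes than in smooth muscle-like cells, where 13.7% of all 14528 tested genes were called higher and 10.8% lower. In single-rule pericytes 15 were higher and 2 lower, against 6.76% and 8.89% of 14579 genes. All 20 were higher than in endothelial-like cells in both sets, against 9.66% of 14521 genes called higher and 9.99% lower for all pericytes and 9.94% and 15.7% of 14572 genes for single-rule pericytes. These shares are the background for every list below, and a count near them is not a result about the list. The lists were chosen with earlier results of these data known, so their counts are a description and not an independent test. The list's median log2 fold change was 1.01 and 2.19 against smooth muscle-like cells, where the median of all genes was 0.23 and 0.02, and 5.36 and 6.59 against endothelial-like cells, where it was -0.05 and -0.15.

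*P2ry14*, a receptor for UDP-glucose (ENSMUSG00000036381, chr3:59113855-59153618), was at 646 and 572 CPM in all pericytes, 1731 and 1691 CPM in single-rule pericytes, 111 and 97.9 CPM in smooth muscle-like cells and 4.74 and 0.983 CPM in endothelial-like cells. Its log2 fold change over smooth muscle-like cells was 2.23 ± 0.21 and 3.7 ± 0.21 (edgeR adjusted p = 1.9e-06 and 2.1e-09). *Ggt1*, a gamma-glutamyltransferase of glutathione breakdown (chr10:75561604-75586200), was at 199 and 177 CPM in all pericytes and had no UMI in smooth muscle-like cells, which makes it at least 68.7-fold higher in all pericytes and at least 190.5-fold higher in single-rule pericytes (against 3 counts over the class). *Pla1a*, a phospholipase, had 2 UMIs in smooth muscle-like cells and 436 in pericytes, a ratio of 83.6 (95% counting interval 23.0 to 692). *Art3*, an ADP-ribosyltransferase family member, was at 351 and 362 CPM against 16.6 and 41.7 CPM in smooth muscle-like cells, with a log2 fold change of 3.28 ± 0.28 (edgeR adjusted p = 1.3e-06). These 4 genes were higher in pericytes of each library than in either library of the other classes.

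Other genes of the mural identity list gave differences of either sign between the 2 kinds of mural cell. *Cspg4*, the proteoglycan NG2, was at 272 ± 31.1 CPM (SD, n = 2) in all pericytes, 595 and 708 CPM in single-rule pericytes and 516 and 479 CPM in smooth muscle-like cells. It was lower in all pericytes (log2 -1.17 ± 0.21, edgeR adjusted p = 6.7e-04) and at 0.06 ± 0.21 (0.97) in single-rule pericytes. *Notch3* gave -0.83 ± 0.30 (0.058) and 0.41 ± 0.30 (0.45) by the same test. *Anpep*, the aminopeptidase CD13, was higher in both sets, at log2 3.18 ± 0.67 and 4.43 ± 0.68. *Mcam*, an adhesion molecule, was lower in both, at log2 -2.93 ± 0.26 and -1.81 ± 0.28. *Nrip2* was lower as well, at log2 -5.43 ± 0.44 and -3.79 ± 0.45.

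**Figure D3:**
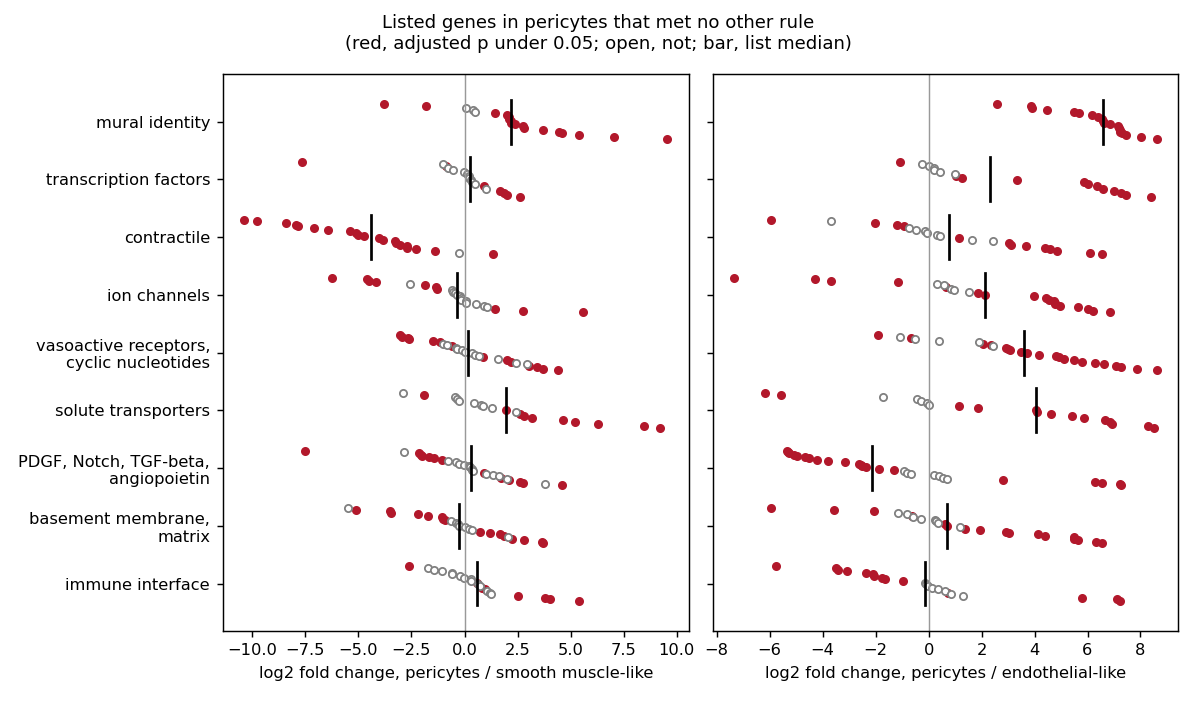
Log2 fold change of each listed gene in single-rule pericytes against smooth muscle-like cells (left) and endothelial-like cells (right) for 9 gene lists, with red points for an edgeR adjusted p under 0.05, open points for the others and a bar at the median of the list. The mural identity genes lay to the right of 0 against endothelial-like cells without exception, and the contractile genes lay mostly to the left of 0 against smooth muscle-like cells.

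Among transcription factors, *Foxf2* was higher and *Myocd* was without counts in pericytes. *Foxf2*, a forkhead factor of brain mural and endothelial cells (chr13:31625816-31631403), was at 117 and 183 CPM in all pericytes, 103 and 179 CPM in single-rule pericytes, 14.8 and 19.9 CPM in smooth muscle-like cells and 124 and 154 CPM in endothelial-like cells. Its log2 fold change over smooth muscle-like cells was 2.75 ± 0.37 and 2.62 ± 0.41 (edgeR adjusted p = 6.4e-05 and 1.9e-04). *Myocd*, the coactivator of serum response factor that drives smooth muscle genes, had 0 UMIs in pericytes and 98.0 and 123 CPM in smooth muscle-like cells, and was at least 105-fold lower in all pericytes and at least 25.4-fold lower in single-rule pericytes. *Foxs1* was at 84.4 and 104 CPM in pericytes and had no UMI in endothelial-like cells, at least 142-fold higher in pericytes. *Zic4*, at 94.0 and 67.7 CPM in all pericytes and 254 and 162 CPM in single-rule pericytes, had 2 UMIs in endothelial-like cells, a ratio of 188 (51.3 to 1558). *Tbx18*, at 34.5 and 45.9 CPM in all pericytes and 117 and 139.6 CPM in smooth muscle-like cells, was lower by log2 -1.97 ± 0.35 in all pericytes, while the difference of -0.78 ± 0.38 for single-rule pericytes did not pass (edgeR adjusted p = 8.1e-04 and 0.22). Of the 18 factors tested of 20, 1 was higher and 9 lower in all pericytes than in smooth muscle-like cells (median log2 -0.78), and 5 were higher and 2 lower in single-rule pericytes (median 0.26). Against endothelial-like cells 9 were higher and 0 lower, and 11 were higher and 1 lower, in the 2 sets. The 1 factor higher in all pericytes was a smaller share than the 13.7% of all genes, and the 2 lower in single-rule pericytes were near the 8.89%.

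Contractile genes outside the rule were mostly far lower in pericytes than in smooth muscle-like cells, with a few exceptions. *Cald1*, the actin-binding protein caldesmon (chr6:34598500-34775473), was at 1464 and 1708 CPM in all pericytes, 3202 and 3396 CPM in single-rule pericytes, 2989 and 3195 CPM in smooth muscle-like cells and 110.1 and 118 CPM in endothelial-like cells. Single-rule pericytes and smooth muscle-like cells differed by log2 -0.24 ± 0.18 (edgeR adjusted p = 0.48), and all pericytes were lower by log2 -1.27 ± 0.20 (2.6e-04). *Myl9*, whose promoter stretch is printed above (gene at chr2:156775420-156781658), was at 855 and 868 CPM in all pericytes, 2071 and 2011 CPM in single-rule pericytes, 8659 and 7117 CPM in smooth muscle-like cells and 20.1 and 15.2 CPM in endothelial-like cells. It stood between the other classes, lower than in smooth muscle-like cells (log2 -3.48 ± 0.22 and -2.27 ± 0.20, edgeR adjusted p = 3.6e-08 and 2.7e-07) and higher than in endothelial-like cells (5.35 ± 0.26 and 6.56 ± 0.25, 1.0e-08 and 1.3e-11). A *Myl9* UMI was present in 65.4% and 76.4% of pericytes (50.2% and 57.0% after thinning), against 3.60% and 2.39% of microglia-like cells.

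*Pln*, *Cnn1* and *Actg2* were at or near 0 in pericytes, while *Mylk* and *Tpm2* were lower than in smooth muscle-like cells but still present. *Pln*, which encodes phospholamban, the inhibitor of the sarcoplasmic calcium pump (chr10:53337667-53345987), had 1 UMI in pericytes and was at 1746 and 1188 CPM in smooth muscle-like cells, 4172 times as high there (748 to 164888). *Cnn1*, calponin, was at 2.56 and 0.778 CPM in pericytes against 444 and 667 CPM (log2 -8.13 ± 0.35, edgeR adjusted p = 2.6e-09). *Actg2* had no UMI in pericytes and was at least 118-fold lower. *Mylk*, the myosin light chain kinase, was at 137 and 187 CPM against 2301 and 2696 CPM (log2 -4.25 ± 0.21, and -3.29 ± 0.20 in single-rule pericytes). *Tpm2*, a tropomyosin, was at 87.0 and 80.9 CPM against 6924 and 7138 CPM (log2 -6.69 ± 0.21, and -5.39 ± 0.20). *Casq2*, a calsequestrin, differed from these, at 90.1 and 81.7 CPM in all pericytes, 259 and 223 CPM in single-rule pericytes and 66.6 and 83.4 CPM in smooth muscle-like cells. It was higher in single-rule pericytes by log2 1.35 ± 0.33 (edgeR adjusted p = 0.0090). *Myl6* was lower than in both other classes, at 1477 and 1551 CPM in pericytes, 9032 and 8574 CPM in smooth muscle-like cells and 1999 and 1793 CPM in endothelial-like cells.

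Of the 22 contractile genes, 0 were higher and 21 lower in all pericytes than in smooth muscle-like cells (median log2 -4.18), and 1 was higher and 20 lower in single-rule pericytes (median -4.39). Against endothelial-like cells 8 were higher and 2 lower, and 9 were higher and 4 lower, with the lower counts near the 9.99% and 15.7% of all genes. Their summed level was 5552 and 6309 CPM in all pericytes, 8805 and 8963 CPM in single-rule pericytes, 55239 and 52380 CPM in smooth muscle-like cells and 3765 and 4038 CPM in endothelial-like cells. The selection rule limited 3 genes of the same machinery, so these counts describe the selection in part. Among single-rule pericytes, the summed level was 8477 and 8688 CPM in the 110 and 94 cells with no UMI of the 3 limited genes and 10125 and 10229 CPM in the 31 and 16 cells with 1 or 2. In the 250 bases before the start, 3 of the 21 contractile genes with a promoter in the RefSeq table (14.3%) held a CArG box (*Cnn2*, *Myl6* and *Myl9*), against 0 of 12 mural identity genes and 1.62% of all genes.

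**Figure D4:**
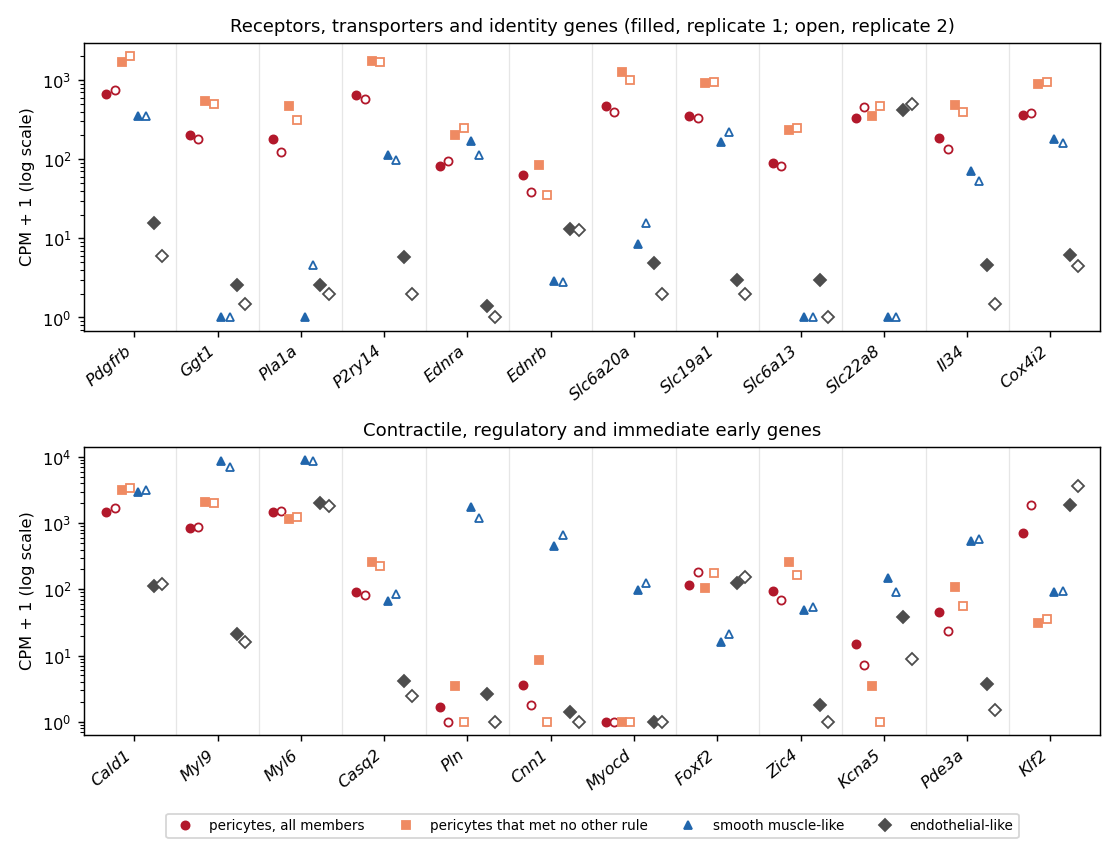
Level in CPM on a log axis (1 CPM added) of 24 genes in all pericytes, single-rule pericytes, smooth muscle-like and endothelial-like cells, with a filled point for replicate 1 and an open point for replicate 2. *Ggt1* and *Slc6a13* were at 0 in smooth muscle-like cells, *Cald1* lay at 3202 and 3396 CPM in single-rule pericytes and 2989 and 3195 CPM in smooth muscle-like cells, and *Pln* and *Myocd* were at or near 0 in pericytes.

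Of the ion channels other than the ATP-sensitive one that were called, more were lower than higher compared with smooth muscle-like cells. *Itpr2*, an inositol trisphosphate receptor that releases stored calcium, was at 143 and 141 CPM in all pericytes and had 2 UMIs in smooth muscle-like cells, a ratio of 77.4 (21.3 to 641), or 78.6 (21.2 to 658) for single-rule pericytes. Its level in microglia-like cells was 130.3 and 119 CPM, close to that in pericytes. *Gjc1*, a gap junction connexin, was at 349.7 and 435 CPM in all pericytes, 690.3 and 904 CPM in single-rule pericytes, 253 and 221 CPM in smooth muscle-like cells and 203 and 170.5 CPM in endothelial-like cells, and was higher in single-rule pericytes than in smooth muscle-like cells by log2 1.43 ± 0.21 (edgeR adjusted p = 1.2e-04). *Kcna5*, a voltage-gated potassium channel, was at 14.1 and 6.22 CPM against 148 and 90.7 CPM (log2 -3.81 ± 0.39) with 1 UMI in single-rule pericytes. *Kcnma1*, the large-conductance calcium-activated potassium channel, was at 9.59 and 5.44 CPM against 72.1 and 119.7 CPM (log2 -3.80 ± 0.40, and -4.18 ± 0.56 in single-rule pericytes). *Cacna1c*, the pore of the L-type calcium channel, was at 31.3 and 18.7 CPM against 53.6 and 68.9 CPM (log2 -1.57 ± 0.31), and the difference of -0.37 ± 0.34 in single-rule pericytes did not pass (edgeR adjusted p = 0.57). *Piezo1*, a mechanosensitive channel, was higher in all pericytes than in smooth muscle-like cells (log2 1.70 ± 0.40) but had no UMI in single-rule pericytes, and was at 88.4 and 102 CPM in endothelial-like cells. Of the 23 channels, 4 were higher and 11 lower than in smooth muscle-like cells in all pericytes (median log2 -1.08), and 3 higher and 7 lower in single-rule pericytes (median -0.37, or -0.23 with bounds), where 13.7% and 10.8%, and 6.76% and 8.89%, of all tested genes were called. Against endothelial-like cells 15 were higher and 3 lower, and 14 higher and 4 lower, with the lower counts near the 9.99% and 15.7% of all genes.

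Both endothelin receptors were detected in pericytes, and the cyclic nucleotide genes *Pde5a*, *Pde3a* and *Prkg1* were lower than in smooth muscle-like cells in both sets. *Ednra*, the endothelin receptor of vascular muscle, was at 81.2 and 93.3 CPM in all pericytes, 199 and 247 CPM in single-rule pericytes and 170.1 and 111 CPM in smooth muscle-like cells, with 1 UMI in endothelial-like cells. Against smooth muscle-like cells it was lower in all pericytes (log2 -0.98 ± 0.31, edgeR adjusted p = 0.032) and at 0.33 ± 0.32 (0.58) in single-rule pericytes. *Ednrb*, the other endothelin receptor, was at 61.4 and 37.3 CPM in all pericytes with 2 UMIs in smooth muscle-like cells, a ratio of 27.6 (7.5 to 230.0), or 34.1 (8.89 to 291) for single-rule pericytes. *Gucy1b1*, a subunit of the soluble guanylate cyclase that nitric oxide activates, was at 288 and 390.4 CPM in all pericytes, 733 and 887 CPM in single-rule pericytes and 342 and 352 CPM in smooth muscle-like cells, where it did not pass for all pericytes (log2 -0.35 ± 0.28, edgeR adjusted p = 0.42) and was higher in single-rule pericytes (0.89 ± 0.27, 0.030). *Pde5a*, which breaks down cyclic GMP, was lower in both sets (log2 -2.16 ± 0.22 in all and -1.15 ± 0.23 in single-rule pericytes), as was *Prkg1*, the cyclic GMP-dependent kinase (-2.27 ± 0.20 and -1.49 ± 0.25). *Pde3a*, a cyclic AMP phosphodiesterase, was at 44.8 and 22.6 CPM against 531 and 573 CPM in smooth muscle-like cells (log2 -4.30 ± 0.29, edgeR adjusted p = 7.7e-08) and gave -3.05 ± 0.29 (8.0e-07) in single-rule pericytes. *P2rx1*, an ATP-gated channel, was at 8.95 and 4.67 CPM against 113 and 119.7 CPM (log2 -4.25 ± 0.39, and -2.63 ± 0.43 in single-rule pericytes). Of the 26 genes tested of 28, 4 were higher and 9 lower than in smooth muscle-like cells in all pericytes (median log2 -0.48, or -0.62 with genes at 0 in one class set to their bound), and 7 higher and 7 lower in single-rule pericytes (median 0.19, or 0.10 with bounds). Against endothelial-like cells 18 were higher and 1 lower, and 19 higher and 2 lower. The 4 higher than in smooth muscle-like cells in all pericytes were near the 13.7% of all genes, and the lower counts against endothelial-like cells were below their background.

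Several transporters of small solutes were higher in pericytes than in smooth muscle-like cells. *Slc6a20a*, a transporter of proline and other imino acids (chr9:123634770-123678885), was at 474 and 392 CPM in all pericytes, 1257 and 1010.4 CPM in single-rule pericytes, 7.40 and 14.5 CPM in smooth muscle-like cells and 3.95 and 0.983 CPM in endothelial-like cells. The log2 fold change over smooth muscle-like cells was 4.95 ± 0.43 and 6.31 ± 0.39 (edgeR adjusted p = 8.0e-07 and 5.2e-09). A UMI was present in 70.0% and 66.8% of pericytes (45.1% and 36.0% after thinning), 4.92% and 6.67% of smooth muscle-like cells and 0.831% and 0.478% of microglia-like cells. *Slc6a13*, a transporter of GABA and taurine, was at 87.6 and 81.7 CPM with no UMI in smooth muscle-like cells, and was at least 30.9-fold higher in all pericytes and at least 86.3-fold higher in single-rule pericytes. *Slc22a8*, an organic anion transporter (chr19:8591254-8611835), was at 332 and 456 CPM in all pericytes, 355 and 464 CPM in single-rule pericytes and 419 and 499 CPM in endothelial-like cells, with no UMI in smooth muscle-like cells, at least 141-fold higher in all pericytes. It did not pass against endothelial-like cells (log2 -0.45 ± 0.22, edgeR adjusted p = 0.18).

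*Slc19a1*, the reduced folate carrier (chr10:77032241-77061002), was at 349.7 and 328 CPM in all pericytes, 912 and 942 CPM in single-rule pericytes, 165 and 219 CPM in smooth muscle-like cells and 1.97 and 0.983 CPM in endothelial-like cells. Against smooth muscle-like cells it gave log2 0.52 ± 0.21 (edgeR adjusted p = 0.094) in all pericytes and 1.94 ± 0.21 (3.1e-06) in single-rule pericytes. *Slc2a1*, the glucose transporter of the blood–brain barrier, was at 2081 and 1163 CPM in all pericytes, 80.6 and 34.4 CPM in single-rule pericytes and 5309.7 and 2197 CPM in endothelial-like cells. Its call over smooth muscle-like cells (log2 5.57 ± 0.31) was lost in single-rule pericytes (0.76 ± 0.42, edgeR adjusted p = 0.27). The same held for *Slc7a1*, a cationic amino acid transporter (4.04 ± 0.28, then -0.44 ± 0.54, 0.69). Of the 19 transporters tested of 20, 10 were higher and 2 lower in all pericytes than in smooth muscle-like cells (median log2 2.15, or 1.36 with bounds), and 9 higher and 1 lower in single-rule pericytes (1.94, or 1.63 with bounds). Against endothelial-like cells 11 were higher and 2 lower, and 12 higher and 2 lower. The lower counts in both comparisons were near or below the shares of all genes called lower.

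Among genes of growth factor signalling, *Heyl* was nearly without counts in endothelial-like cells, while *Angpt1* and *Ltbp1* were lower in pericytes than in smooth muscle-like cells. *Heyl*, a target of Notch signalling, was at 110.0 and 118 CPM in all pericytes, 244 and 296 CPM in single-rule pericytes, 141 and 190.4 CPM in smooth muscle-like cells and 1.58 and 0 CPM in endothelial-like cells. *Angpt1*, the ligand of the receptor Tek, was at 3.84 and 3.11 CPM in all pericytes and at 61.0 and 27.2 CPM in smooth muscle-like cells (log2 -3.71 ± 0.52, edgeR adjusted p = 8.5e-05) and gave -2.01 ± 0.58 (0.024) in single-rule pericytes. *Ltbp1*, which binds latent TGF-beta, was at 0.639 and 4.67 CPM against 338 and 286 CPM (log2 -6.95 ± 0.43), with 1 UMI in single-rule pericytes. *Id1*, a target of bone morphogenetic protein signalling, was at 712 and 937 CPM in all pericytes, 88.2 and 37.8 CPM in single-rule pericytes, 148 and 70.7 CPM in smooth muscle-like cells and 2093 and 2030.4 CPM in endothelial-like cells. It was higher than in smooth muscle-like cells in all pericytes (log2 2.67 ± 0.30) and lower in single-rule pericytes (-1.06 ± 0.32, edgeR adjusted p = 0.028). Of the 28 signalling genes, 16 were higher and 3 lower in all pericytes (median log2 1.21), and 6 higher and 7 lower in single-rule pericytes (median 0.30). The 3 lower in all pericytes were near the 10.8% of all genes. Against endothelial-like cells 5 were higher and 15 lower, and 5 higher and 16 lower.

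In the matrix, laminin chains differed between the mural classes. *Lama2*, a laminin alpha chain, was at 125 and 128 CPM in all pericytes, 328 and 326 CPM in single-rule pericytes, 16.6 and 23.6 CPM in smooth muscle-like cells and 3.16 and 1.47 CPM in endothelial-like cells (log2 2.31 ± 0.47 and 3.65 ± 0.44 over smooth muscle-like cells, edgeR adjusted p = 0.0020 and 1.1e-05). *Lama5*, another alpha chain, was at 24.3 and 27.2 CPM in all pericytes and 165 and 196 CPM in smooth muscle-like cells (log2 -3.08 ± 0.31, and -5.11 ± 0.52 in single-rule pericytes). *Col4a1*, a collagen chain of the basement membrane, was at 711 and 793 CPM in all pericytes, 769 and 765 CPM in smooth muscle-like cells and 771 and 682 CPM in endothelial-like cells, and passed in neither comparison. *Eln*, elastin, was at 5.75 and 3.89 CPM against 314 and 421 CPM in smooth muscle-like cells, with no UMI in single-rule pericytes, at least 84.4-fold lower. Of the 25 matrix genes found of 26, 9 were higher and 11 lower in all pericytes than in smooth muscle-like cells (median log2 -0.54), and 8 higher and 8 lower in single-rule pericytes (median -0.24). Against endothelial-like cells 10 were higher and 4 lower, and 13 higher and 4 lower, the last of these near the 15.7% of all genes.

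Among paralogues of mitochondrial proteins, *Cox4i2* was higher in pericytes than in both other classes and *Ndufa4* was lower than in both. *Cox4i2*, the subunit of cytochrome c oxidase used at low oxygen, was at 356 and 388 CPM in all pericytes, 897 and 949 CPM in single-rule pericytes, 178 and 161 CPM in smooth muscle-like cells and 5.13 and 3.44 CPM in endothelial-like cells (log2 0.84 ± 0.21 and 2.12 ± 0.21 over smooth muscle-like cells, edgeR adjusted p = 0.0096 and 1.2e-06). Its general counterpart *Cox4i1* was at 725 and 623 CPM in all pericytes and 662 and 642 CPM in endothelial-like cells, where the difference did not pass (log2 -0.18 ± 0.11, edgeR adjusted p = 0.26). *Ndufa4*, the paralogue of the selection gene *Ndufa4l2*, was at 399 and 424 CPM in all pericytes, 146 and 124 CPM in single-rule pericytes, 723 and 651 CPM in smooth muscle-like cells and 606 and 717 CPM in endothelial-like cells, lower in both comparisons (log2 -1.04 ± 0.12 and -0.91 ± 0.12 for all pericytes, -2.66 ± 0.16 and -2.52 ± 0.15 for single-rule pericytes). *Higd1a*, the paralogue of *Higd1b*, was also lower than in smooth muscle-like cells (log2 -1.32 ± 0.16). Of the 6 genes tested among 14 in paralogue pairs, 2 were higher and 3 lower than in smooth muscle-like cells and 3 higher and 2 lower than in endothelial-like cells, in both sets. Reads of paralogues can be shared where their sequences are alike. Of the 19 genes of oxygen response and energy found of 20, 2 were higher and 7 lower in all pericytes than in smooth muscle-like cells, and 1 higher and 7 lower in single-rule pericytes, with the higher counts near or below the 13.7% and 6.76% of all genes. Against endothelial-like cells 5 were higher and 3 lower, and 4 higher and 4 lower. The median log2 of -0.04 for all pericytes turned to 0.03 under DESeq2 and to 0.19 under library sizes alone.

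Genes at the interface with immune cells included a growth factor, a chemokine and interferon-induced genes. *Il34*, a ligand of the microglial receptor Csf1r, was at 186 and 135 CPM in all pericytes, 486 and 392 CPM in single-rule pericytes, 70.3 and 52.6 CPM in smooth muscle-like cells and 3.55 and 0.491 CPM in endothelial-like cells (log2 1.07 ± 0.31 and 2.51 ± 0.31 over smooth muscle-like cells, edgeR adjusted p = 0.021 and 1.6e-05). *Cxcl12*, a chemokine, was at 684 and 1188 CPM in all pericytes, 227 and 309 CPM in single-rule pericytes, 18.5 and 7.25 CPM in smooth muscle-like cells and 2289 and 2739 CPM in endothelial-like cells. It was higher than in smooth muscle-like cells in both sets (log2 5.86 ± 0.47 and 4.01 ± 0.42) and lower than in endothelial-like cells. *Ifitm1*, an interferon-induced membrane protein, was at 513 and 539.8 CPM against 14.8 and 38.1 CPM in smooth muscle-like cells (log2 3.98 ± 0.60, and 5.38 ± 0.57 in single-rule pericytes). *Serping1*, the inhibitor of complement C1, was at 19.8 and 16.3 CPM against 296 and 219 CPM (log2 -4.08 ± 0.44, and -2.60 ± 0.44). Of the 22 genes tested of 24, 11 were higher and 1 lower in all pericytes than in smooth muscle-like cells (median log2 1.05), and 7 higher and 1 lower in single-rule pericytes (median 0.61), with the lower counts below the 10.8% and 8.89% of all genes. Against endothelial-like cells 5 were higher and 6 lower, and 4 higher and 10 lower. The median log2 of -0.16 for all pericytes stood at -0.08 under DESeq2 and turned to 0.07 under library sizes alone.

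The genes with the greatest differences, members of the lists included, taken as the 12 greatest in each direction with at least 50 CPM in both libraries of the higher class, divided by whether they stayed when only single-rule pericytes were taken. Over smooth muscle-like cells, all pericytes were led by *Slc22a8* together with endothelial genes such as *Kdr*, *Cdh5*, *Egfl7* and *Tek*. Barcodes that met the endothelial rule were kept in all pericytes and left out of smooth muscle-like cells. The rank of these endothelial genes therefore describes the selection in part, and *Cdh5* is itself a gene of that rule. *Kdr*, the main receptor for vascular endothelial growth factor, was at 203 and 362 CPM in all pericytes, 25.2 and 6.87 CPM in single-rule pericytes and 361 and 557 CPM in endothelial-like cells. Single-rule pericytes were led over smooth muscle-like cells by *Spp1*, *Ggt1*, *Slc22a8*, *Slc6a13* and *Hic1*. *Spp1*, which encodes osteopontin, was at 922 and 319.6 CPM in single-rule pericytes with no UMI in smooth muscle-like cells, at least 243-fold higher. However, a UMI was present in only 54 of 251 single-rule pericytes and the 5 highest cells held 44.7% of the UMIs. *Nts*, neurotensin, was at 783 and 450.2 CPM in 96 of these cells, with 25.3% of the UMIs in 5. *Hic1*, a transcriptional repressor, was at 191 and 275 CPM in single-rule pericytes with no UMI in smooth muscle-like cells, at least 82.6-fold higher.

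Over endothelial-like cells both sets were led by *Carmn*, *Spp1*, *Foxs1*, *P2ry14*, *Slc19a1*, *Slc6a20a*, *Sod3*, *Perp*, *Ggt1*, *Ednra* and *Nodal*. *Carmn*, a long noncoding RNA of cardiac and vascular muscle, was at 148 and 126 CPM in all pericytes, 406 and 333 CPM in single-rule pericytes and 253 and 306 CPM in smooth muscle-like cells, with no UMI in endothelial-like cells, at least 211-fold higher in all pericytes. *Sod3*, the extracellular superoxide dismutase, was at 553 and 464 CPM in all pericytes, 1318 and 1248 CPM in single-rule pericytes, 83.2 and 61.6 CPM in smooth muscle-like cells and 5.92 and 0.491 CPM in endothelial-like cells (log2 6.78 ± 0.40 and 8.09 ± 0.39, edgeR adjusted p = 4.3e-08 and 9.6e-11). *Nodal*, a ligand of the TGF-beta family, was at 80.6 and 59.1 CPM in all pericytes with 1 UMI in endothelial-like cells, a ratio of 324 (57.5 to 12853), and with 3 UMIs in smooth muscle-like cells, a ratio of 25.8 (8.71 to 126). Among genes lower than in endothelial-like cells, *Gkn3*, a gene of arterial endothelium, was at 16.6 and 12.4 CPM against 126 and 187 CPM (log2 -3.55 ± 0.26). *Sox18*, an endothelial transcription factor, was at 304 and 299 CPM in all pericytes but had no UMI in single-rule pericytes.

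In number, 1987 genes were higher and 1574 lower in all pericytes than in smooth muscle-like cells, and 985 higher and 1296 lower in single-rule pericytes. The sets shared 695 of the higher genes, 35.0% of those of all pericytes and 70.6% of those of single-rule pericytes, and 23 genes called higher in all pericytes were called lower in single-rule pericytes. Against endothelial-like cells 1403 were higher and 1451 lower in all pericytes, and 1448 higher and 2288 lower in single-rule pericytes, with 959 and 1297 shared. The balance of the calls moved with the method. Of the calls against smooth muscle-like cells 55.8% were higher, 49.9% under DESeq2, 75.1% under library sizes alone and 56.1% with no replicate block. Against endothelial-like cells these shares were 49.2%, 60.0%, 73.8% and 57.0%. DESeq2 changes the test as well as the scaling. The median log2 fold change of all genes against smooth muscle-like cells moved from 0.23 to 0.14 under DESeq2 and to 0.53 under library sizes alone.

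Markers of other cell types moved with these comparisons. The 12 other endothelial markers summed to 10630 and 11206 CPM in all pericytes, 1252 and 828 CPM in single-rule pericytes, where *Esam* was the most abundant, 319.9 and 216 CPM in smooth muscle-like cells and 27158 and 22351 CPM in endothelial-like cells. All 12 were higher in all pericytes than in smooth muscle-like cells, and 7 in single-rule pericytes, while all 12 were lower than in endothelial-like cells in both sets. The endothelial rule shaped which barcodes entered these classes, so the counts describe the selection in part. The 7 endothelial genes of the rule summed to 5814 and 9807 CPM in all pericytes and 270 and 196 CPM in single-rule pericytes, with *Flt1* the most abundant and *Pecam1* and *Cdh5* at 0. *Flt1* was present in 29.1% and 20.0% of single-rule pericytes (15.1% and 12.05% after thinning) against 3.79% and 3.15% of microglia-like cells (0.502% and 0.706%). *Klf2*, a transcription factor induced by blood flow in endothelium, was at 704 and 1862 CPM in all pericytes, 30.2 and 34.4 CPM in single-rule pericytes, 90.6 and 94.3 CPM in smooth muscle-like cells and 1872 and 3624 CPM in endothelial-like cells. Of the 17 immediate early and heat shock genes, 7 were higher and 0 lower than in smooth muscle-like cells in all pericytes, and 1 higher and 5 lower in single-rule pericytes, where the 1 higher was near the 6.76% of all genes. Against endothelial-like cells 0 were higher, with 11 and 13 lower. The part of these genes in the other results was not tested.

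Fibroblast markers summed to 279 and 403 CPM in all pericytes, 600 and 983 CPM in single-rule pericytes, 287 and 520 CPM in smooth muscle-like cells and 19.7 and 13.3 CPM in endothelial-like cells, with 7 and 8 of the 10 genes present. Of the 7 tested, 3 were higher and 3 lower in all pericytes than in smooth muscle-like cells, and 3 higher and 0 lower in single-rule pericytes, with 6 and 5 higher than in endothelial-like cells. *Col1a2*, a collagen chain on that list and on the matrix list, was at 95.9 and 109.7 CPM in all pericytes and 211 and 301 CPM in smooth muscle-like cells. *Igf2*, an insulin-like growth factor, was at 74.2 and 169 CPM with 2 UMIs in smooth muscle-like cells. Erythroid genes, led by the globin *Hbb-bs*, summed to 3947 and 5752 CPM in all pericytes, 234 and 20.6 CPM in single-rule pericytes, 102 and 3249 CPM in smooth muscle-like cells and 8987 and 2902 CPM in endothelial-like cells, with a wide spread between libraries. *Hbb-bs* gave log2 0.95 ± 1.79 against smooth muscle-like cells and 0.55 ± 1.76 against endothelial-like cells in all pericytes (edgeR adjusted p = 0.75 and 0.88). In single-rule pericytes 1 of the 5 was lower than in endothelial-like cells. Their median for all pericytes turned sign under DESeq2, from 0.15 to -0.23 against smooth muscle-like cells and from -0.25 to 0.18 against endothelial-like cells. Under library sizes alone it kept its sign, at 0.47 and -0.03. Macrophage markers summed to 19.8 and 34.2 CPM in all pericytes and 30.2 and 13.7 CPM in single-rule pericytes. In all pericytes 1 of 7 was higher and 1 lower than in smooth muscle-like cells, near the 13.7% and 10.8% of all genes. Oligodendrocyte markers summed to 2430 and 909 CPM in all pericytes and 877 and 375 CPM in single-rule pericytes, with *Cnp* the most abundant. Neuronal markers summed to 979 and 346 CPM, microglial markers to 695 and 573 CPM and astrocyte markers to 247 and 206 CPM in all pericytes, and to 844 and 540 CPM, 252 and 134 CPM, and 169 and 65.3 CPM in single-rule pericytes. In smooth muscle-like cells the oligodendrocyte markers were at 348 and 158 CPM, the microglial at 135 and 52.6 CPM and the astrocyte at 35.1 and 27.2 CPM, below all pericytes in both libraries, and the neuronal at 122 and 377 CPM. In endothelial-like cells the 4 sums, in the same order, were 660.1 and 296 CPM, 189 and 116 CPM, 169 and 137 CPM, and 223 and 153 CPM. Oligodendrocyte precursor markers summed to 240 and 107 CPM in all pericytes and 42.8 and 41.2 CPM in single-rule pericytes. They were at 9.25 and 7.25 CPM in smooth muscle-like cells and 26.4 and 15.2 CPM in endothelial-like cells. The part of these markers in the genes called higher in all pericytes, those of GABA transport below included, was not tested.

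*Crym*, the gene at the centre of the study, was not separated from its background in pericytes, as the libraries fell on either side of it after thinning. A *Crym* UMI was present in 17.1% and 3.52% of all pericytes and 9.93% and 1.82% of single-rule pericytes, against 14.3% and 7.64% of microglia-like cells. After thinning to 1000 UMIs the shares were 6.51% and 0.581% of all pericytes, 8.40% and 0% of single-rule pericytes and 3.91% and 2.02% of microglia-like cells. *Slc6a11*, a GABA transporter of astrocytes, was present in 7.08% and 6.03% of all pericytes, against 4.06% and 3.72% of microglia-like cells, and in 4.96% and 2.73% of single-rule pericytes. After thinning its shares were 3.72% and 2.33% of all pericytes and 2.52% and 1.20% of single-rule pericytes, against 0.702% and 0.706% of microglia-like cells. For all pericytes the exact 95% intervals were apart in replicate 1 (1.62 to 7.20 against 0.283 to 1.44) and overlapped in replicate 2 (0.637 to 5.85 against 0.284 to 1.45). For single-rule pericytes they overlapped in both (0.523 to 7.19 and 0.0305 to 6.53), and 20 and 7 of all pericytes met the astrocyte rule. Of the 7 genes tested of the 8 for GABA transport and *Crym*, 6 were higher and 0 lower in all pericytes than in smooth muscle-like cells, and 2 were higher in single-rule pericytes, while 3 were higher and 1 lower, and 2 higher and 2 lower, than in endothelial-like cells. The backgrounds are 13.7% higher and 10.8% lower, 6.76% higher, and 9.66% and 9.99%, and 9.94% and 15.7%, of all genes. *Slc6a13* was detected more often than in microglia-like cells in both libraries, with a UMI in 32.1% and 30.2% of pericytes (13.95% and 8.14% after thinning) against 0.554% and 0.478% of microglia-like cells (0.100% and 0.101%) and 0 of 61 and 0 of 60 smooth muscle-like cells.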

How the data were processed

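The authors aligned the reads of both libraries to mm10 and counted UMIs per gene and barcode with Cell Ranger, version 4.0 in the submitters' processing notes and the matrix header (the methods of the study name another version). The deposited values are raw UMI counts of 32285 genes, without normalization. The study's doublet removal, integration and cell annotation were not used here, and the classes were rebuilt from marker genes, which may differ from those of the study. The matrices were handled in scipy 1.17.1, numpy 2.4.6 and pandas 2.3.3 under python 3.11.15.

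The pericyte rule and the gene lists were chosen with earlier results of these data known. Barcodes with at least 300 detected genes were kept. A barcode meeting the rules of 2 or more of the other 7 classes belonged to none of them, while pericytes were kept whole. The rules were at least 4 of 7 marker genes for endothelial, microglia-like and neuronal cells, 5 of 7 for oligodendrocyte-like cells, 3 of 7 for astrocyte-like cells and oligodendrocyte precursors, and all 3 contractile genes for smooth muscle-like cells. Scrublet (scanpy 1.11.5, expected doublet rate set to 6%) marked doublets, which were kept except in 1 alternative.

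Counts were summed per library and class and fitted in edgeR 4.0.16 (R 4.3.3) over all 8 classes with TMM scaling, filterByExpr, the library as a block and a prior count of 2. The library pairs the classes because both come from 1 suspension. Adjusted p-values were taken over all genes outside the gates of the 2 classes compared. Alternatives used other cell filters, thinning to 1000 UMIs (52 shallower pericytes left out), DESeq2 1.42.0, library sizes alone, no block, 3 classes only and no gene filter. Named genes were drawn from 2 sources, not all of whose genes are named. One was the 12 greatest called changes in each direction with the same sign in both libraries and 50 CPM or more in both libraries of the higher class. The other was the leaders of each list by level or change. Other genes named are further members of the lists, picked with their values known. Beside a class at 0 counts, a fold is a bound against 3 counts over the class; with 1 to 3 counts it is a ratio with an exact counting interval. The fits were tested on simulated data, where small changes were often missed, so a gene that did not pass may still differ. Gene positions came from GENCODE M21 (GRCm38) and promoters from RefSeq (GRCm38.p6).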

Additional observations from a re-analysis of the deposited data

How the results depend on the processing

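The share of pericytes, 3.59% as a mean of the libraries, was 3.87% with barcodes under 20% mitochondrial UMIs, 2.99% with at least 4 marker genes, 2.81% without any contractile UMI and 2.05% without pericytes that met another rule, and 3.48% to 3.71% when either library was left out. The 1987 genes higher than in smooth muscle-like cells became 985 without pericytes that met another rule, 591 after thinning and 3204 under library sizes alone, and the 1574 lower became 311 after thinning. The 1403 genes higher than in endothelial-like cells became 705 after thinning, and the 1451 lower became 2288 without pericytes that met another rule, 2405 with at most 1 endothelial gene (chosen after seeing the data), 811 after thinning, 644 under library sizes alone and 890 with no replicate block. Thinning leaves fewer counts. The block, which treats the classes of a library as paired, moved no other count by over 1.5 times, and ended 9 of 165 gene results when left out. Calls of named genes were also lost, with the direction kept, for 22 after thinning, 19 without pericytes that met another rule, 18 with at most 1 endothelial gene and 14 under DESeq2. Another 2 alternatives lost 9 (smooth muscle rule kept whole) and 7 (library sizes alone), and the remaining ones lost fewer. Leaving out a library leaves no residual degrees of freedom, so these counts have no value there. Against smooth muscle-like cells, log2 fold changes turned sign without pericytes that met another rule for *Ebf1* (0.29), *Gja4* (0.0870), *Piezo1* (-4.58), *Slc38a11* (0.47), *Id1* (-1.06), *Id3* (-2.15), *Klf2* (-1.82) and *Klf4* (-3.10). *Piezo1* had no UMI in these single-rule pericytes, so its -4.58 is a fitted value that depends on the prior count. It is not a measured fold. With at most 1 endothelial gene, log2 fold changes turned for *Adgrl4* (-0.12), *Piezo1* (-4.57), *Slc38a11* (0.0432), *Id1* (-1.42), *Id3* (-1.98), *Klf2* (-1.73) and *Klf4* (-3.11). After thinning they turned for *Ebf1* (0.31), *Piezo1* (-0.17), *Slc38a11* (0.14) and *Col3a1* (0.16), and *Pf4* turned to -0.18 with the smooth muscle rule kept whole. *Col1a1* ranged from -5.49 to 0 when either library was left out, 0 without replicate 2. Against endothelial-like cells *Hbb-bs* turned to -6.79 without pericytes that met another rule and *Crip1* to 0.0574 after thinning. The causes were not tested.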
